A study of Mus musculus with 6 samples.

Results

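The cytosolic ribosomal protein genes encode the proteins of the ribosome, and the 82 autosomal genes with Rpl or Rps symbols were examined here for DNA methylation around their transcription starts in mouse male germ cells. Members were taken by symbol, without the Rps6k kinases and pseudogenes, and a gene counted as measured when at least 3 CpG cytosines within 1 kb of its start were listed in all 6 libraries. That left 76 of the 82 genes, of 14570 protein-coding genes measured in the same way. Of the 6 genes not measured, Rpl17, Rpl32l, Rps27, Rps27rt and Rps29 had no such cytosine and Rps28 had 1. The 3 CSDS libraries came from germ cells of mice exposed to chronic social defeat stress, in which a subordinate animal is repeatedly attacked by a dominant one, and the 3 Control libraries came from germ cells of control mice. All were reduced representation bisulfite libraries of genomic DNA, a method that cuts DNA at short recognition sites and so favours CpG-rich promoters. The labels give no strain, age, germ cell stage or purification, and do not say whether replicates are separate animals, so every p below measures only the spread between these libraries, which may be technical.

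Ribosomal proteins are made in nearly every cell, and their genes start within CpG islands, stretches of dense CpGs that stay free of methylation in most tissues. Bisulfite turns unmethylated cytosines into bases read as T and leaves methylated ones as C, so an unmethylated promoter reads a low share of C that also holds any cytosine the chemistry failed to convert. The family further includes copies of standard members, among them Rpl10l and Rpl39l, autosomal copies of X-linked genes that are expressed in the testis, and Rpl3l, the copy of Rpl3 used in striated muscle.

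The promoters of 4 members show the base composition behind the results. Those of Rpl27a and Rpl10a, both standard large subunit proteins, with 38 and 32 listed cytosines in the stretch, are shown for the recognition site CCGG, set in capitals. Those of the testis copies Rpl10l and Rpl39l are shown for their CpGs, set in capitals as CG. Each runs 5′ to 3′ on the coding strand over 260 bases and ends with the first 10 transcribed bases, from RefSeq on GRCm38.p6. The coordinates are chr7:109518945-109519204 (plus strand) for Rpl27a, chr17:28328221-28328480 (plus) for Rpl10a, chr12:66284392-66284651 (minus) for Rpl10l and chr16:10169978-10170237 (plus) for Rpl39l.
Rpl27a: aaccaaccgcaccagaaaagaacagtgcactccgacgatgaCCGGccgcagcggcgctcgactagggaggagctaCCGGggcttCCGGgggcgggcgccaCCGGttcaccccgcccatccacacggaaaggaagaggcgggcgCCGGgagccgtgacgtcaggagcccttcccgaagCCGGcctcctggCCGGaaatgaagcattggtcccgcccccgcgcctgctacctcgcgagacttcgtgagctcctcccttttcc
Rpl10a: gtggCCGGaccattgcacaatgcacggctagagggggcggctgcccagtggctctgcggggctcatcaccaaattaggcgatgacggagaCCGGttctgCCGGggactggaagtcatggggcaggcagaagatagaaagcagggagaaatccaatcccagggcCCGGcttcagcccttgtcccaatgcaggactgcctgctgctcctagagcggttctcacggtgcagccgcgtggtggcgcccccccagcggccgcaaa
Rpl10l: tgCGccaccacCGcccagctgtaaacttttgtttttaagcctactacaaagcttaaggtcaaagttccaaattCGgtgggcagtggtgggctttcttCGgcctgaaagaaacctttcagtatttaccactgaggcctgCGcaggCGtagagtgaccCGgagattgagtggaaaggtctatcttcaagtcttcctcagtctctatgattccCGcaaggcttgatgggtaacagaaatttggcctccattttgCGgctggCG
Rpl39l: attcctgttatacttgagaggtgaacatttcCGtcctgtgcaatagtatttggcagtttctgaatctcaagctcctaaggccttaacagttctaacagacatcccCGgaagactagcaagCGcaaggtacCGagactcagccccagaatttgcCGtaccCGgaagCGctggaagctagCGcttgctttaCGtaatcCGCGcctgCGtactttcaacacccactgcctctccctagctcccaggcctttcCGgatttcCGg
The Rpl27a stretch held 29 CpGs and 7 CCGG sites, that of Rpl10a 16 CpGs and 4 CCGG sites, that of Rpl39l 14 CpGs and that of Rpl10l 10 CpGs. Promoter sequences of 300 bases were on hand for 62 members, whose median was 21 CpGs, against 14 over all 17492 promoters in the same table. CCGG occurred in 91.9% of the members' promoters and in 62.9% of all promoters. CCGGAAG, an ETS-type motif on either strand that overlaps CCGG, occurred in 37.1% of the members' promoters and in 12.0% of all. CTTTC or CTTCC, the start of a pyrimidine tract, lay within the first 20 transcribed bases in 35.5% of members and in 6.52% of all.

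CSDS replicates 2 and 3 listed 3156788 and 3017470 cytosines with at least 10 reads, more than the 2420308 to 2671515 of the other 4 libraries. The median coverage was 44 to 50 reads, and the coverage exceeded by the top 0.1% of cytosines was 220 and 222 reads in those 2 libraries and 275 to 284 reads in the other 4. The 76 windows held 5923 cytosines used in all 6 libraries, with a median of 68 per window, a lowest of 5 in Rps16 and a highest of 226 in Rpl36al. Reads per window and library ran between 98 and 16345. In 27 mitochondrial cytosines, in DNA usually taken as free of methylation, the median share read as C was 8.50, 4.41 and 4.53% in CSDS replicates 1 to 3, against 8.90, 8.84 and 10.04% in Control replicates 1 to 3. CSDS replicates 2 and 3 therefore stood apart from the other 4 libraries in a compartment outside the nucleus as well; the part of coverage in the differences between groups was not tested.

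Almost all ribosomal protein genes read low in every library, and a low share of C was shared by most other genes. The mean level of a window, the average over its cytosines of the percent of reads showing C, was under 20% in 69 of the 76 members (90.8%), against 82.2% of all windows measured. In both sets some windows were placed by a gene end and may not cover the start, so these shares are not strictly of promoters. Leaving aside Rpl3 and Rpl37rt, described below, the window means lay between 5.40% in Rps16 and 26.6% in Rpl3l, and their SD between genes was 3.41 points. The order of the genes was partly shared between libraries, with Spearman correlations of 0.612 to 0.794 between any pair of libraries over these 74 genes, as a description across genes that share libraries.

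**Figure D1:**
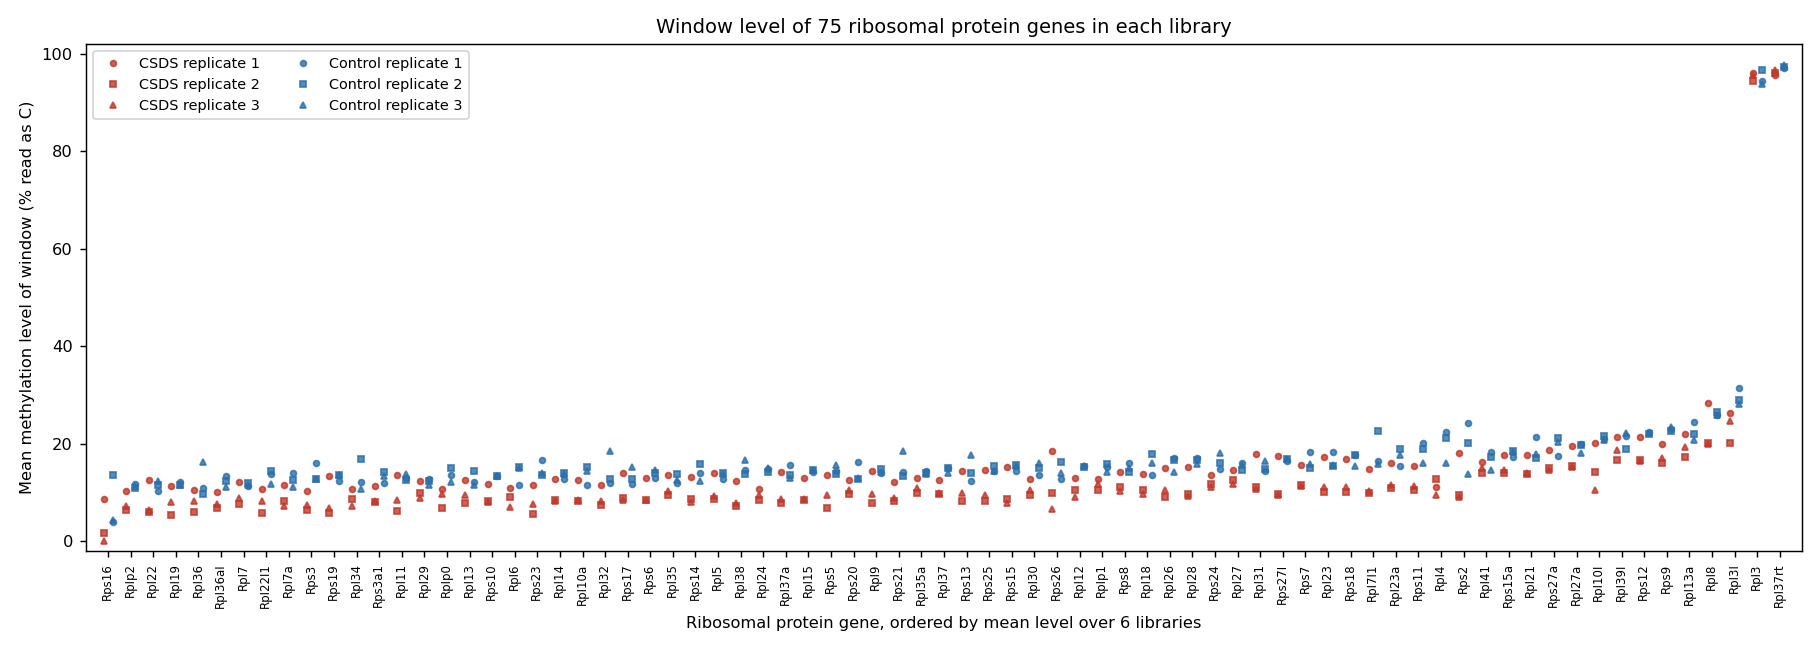
Mean level (percent of reads showing C, y axis) of the window within 1 kb of the start of each of 75 ribosomal protein genes (x axis, ordered by mean over libraries), with 1 point per library, CSDS in red left of Control in blue. Nearly all windows sit under 20%, and CSDS replicates 2 and 3 lie lowest in 71 of the 75 genes drawn.

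The lowest windows belonged to standard members, and the other stalk genes and the members with most cytosines are given beside them. Rps16, a protein of the small subunit head, read 8.70, 1.67 and 0% in CSDS and 4.0, 13.7 and 4.36% in Control replicates 1 to 3, on 5 cytosines. These lay 436 to 457 bases after the start, and none nearer to it was used. Rplp2, an acidic protein of the stalk that recruits elongation factors, read 10.4, 6.38 and 7.13% in CSDS and 11.6, 10.9 and 11.4% in Control on 68 cytosines. Its stalk partners read higher, Rplp0 with 9.06% ± 2.01 in CSDS and 13.5% ± 1.44 in Control and Rplp1 with 11.7% ± 1.07 in CSDS and 15.1% ± 0.858 in Control (SD, n = 3 each). In Rplp0, Rplp1 and Rplp2 all CSDS libraries lay below the Control libraries, whereas in Rps16 the groups overlapped. Rpl22 and Rpl19, both large subunit proteins, had the next lowest means over all libraries, of 9.85 and 9.99%. Of the members with most cytosines, Rpl36al, a copy of the X-linked Rpl36a, read 8.18% ± 1.74 in CSDS and 12.2% ± 1.18 in Control. Rpl10a read 9.72% ± 2.39 in CSDS and 13.7% ± 1.87 in Control, and Rps6, the small subunit protein phosphorylated by S6 kinases, read 9.99% ± 2.65 in CSDS and 13.8% ± 0.902 in Control (SD, n = 3 each).

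Within these windows most cytosines read low and a minority read high. Of the 5893 cytosines in the 74 windows, 2908 (49.3%) read between 5 and 10% as a mean over libraries, 459 (7.79%) between 20 and 50%, 81 (1.37%) between 50 and 80%, and 204 (3.46%) 80% or more. The 285 cytosines over 50% were scattered over 73 of the 74 genes. A gene's window mean followed its share of cytosines over 50% (Spearman 0.720 across the 74 genes), while its window median did so much less (0.205), again as descriptions across genes. This contrast follows largely from the measures, since a mean includes those cytosines and a median moves little with a minority.

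In the promoter stretch, from 250 bases before to 49 after the start, the high cytosines all lay at CCGG, the recognition site of MspI, the enzyme usually used in reduced representation libraries but not named in the labels. The 1172 promoter cytosines of 46 members with RefSeq promoters included 62 over 50%, and all 62 lay in the CpG of a CCGG. The rest of the 285 cytosines over 50% in whole windows could not be placed in sequence. The 211 cytosines at CCGG, in 44 genes, averaged 38.0% with a median of 25.7%, and the 961 cytosines elsewhere averaged 7.24% with a median of 6.61% and none over 50%. Median coverage was alike, at 71 reads at CCGG and 72.5 reads elsewhere. Sorted by the base before and the base after the CpG, the 15 contexts other than CCGG averaged between 6.24% (GCGT) and 8.35% (CCGC). Promoters of other genes had the same pattern: of 9218 cytosines over 50% in windows averaging under 50%, 9212 (99.9%) lay at CCGG, and cytosines elsewhere averaged 6.25%.

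At many of these sites, though not all, the strands of the same CpG disagreed. Both strands were listed at 95 CCGG sites of 39 members. At 45 of them 1 strand read over 80%, with a median of 98.0%, while the opposite strand read between 3.60 and 18.5%, with a median of 7.75%. The higher strand was the forward one at 19 sites and the reverse one at 26, and at no site were both over 50%. Other sites read alike and intermediate on both strands. Examples are position 86857456 of Rps6, with 28.2% forward and 28.8% reverse, and position 180257354 of Rps21, with 26.3% forward and 26.9% reverse. The median difference between strands was 62.8 points at the 95 sites and 2.37 points at 424 CpGs elsewhere in the same promoters, where the widest was 13.2 points. Over whole windows, 233 of 2615 CpGs with both strands (8.91%) had strands more than 50 points apart, against 9.17% of 464471 CpGs in windows of other genes. Both strands were over 50% at 5 of the 2615 (0.191%), against 0.153% in windows of other genes. In reduced representation libraries the ends cut by the enzyme are filled in with supplied nucleotides; the part of this step in the strand difference was not tested.

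**Figure D2:**
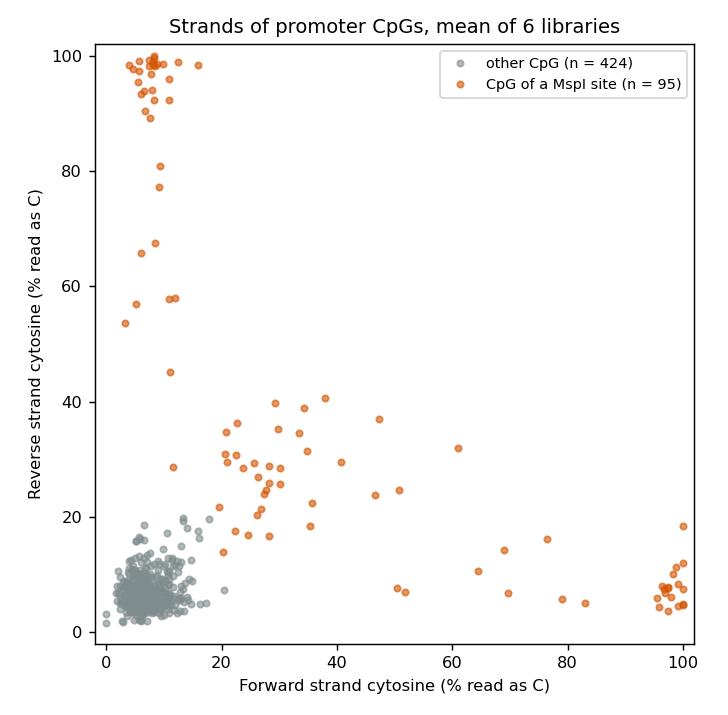
Level on the reverse strand (y axis) against the forward strand (x axis), as percent of reads showing C averaged over 6 libraries, for 95 CpGs of MspI sites (orange) and 424 other CpGs (grey) in promoters of ribosomal protein genes. Other CpGs cluster low on both strands, while 45 MspI sites have 1 strand over 80% and the opposite strand no higher than 18.5%. Some of the remaining MspI sites read similar intermediate levels on both strands.

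The capitals in the Rpl27a and Rpl10a sequences mark examples. In Rpl27a the second site (position 109519021 on chromosome 7) read 100% on the forward strand in all 6 libraries and 4.72% on the reverse strand as a mean over libraries. A site 25 bases downstream (position 109519046) read the opposite way, 5.56% on the forward and 95.3% on the reverse strand. The first site (position 109518987) was intermediate on both strands, with 28.2 and 16.8% on the forward and reverse strand. In Rpl10a a pair of sites 9 bases apart were opposite in the same way: position 28328312 read 99.1% forward and 4.60% reverse, and position 28328321 read 7.46% forward and 98.2% reverse. Outside CCGG the promoter of Rpl27a averaged 5.59% over 28 cytosines and that of Rpl10a 6.01% over 32.

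With CCGG set aside, most promoters read alike. Of 43 genes with at least 3 promoter cytosines elsewhere, 39 averaged under 10%, and the lowest was Rpl6 with 3.98%. The 4 genes at or over 10% were Rps26 with 10.6%, Rpl39l with 10.8%, Rps2 with 12.3% and Rpl10l with 16.8%. Rps2, a small subunit protein near the messenger RNA entry channel, varied widely between libraries, reading 19.5, 3.90 and 2.81% in CSDS and 29.0, 14.9 and 3.70% in Control over 15 such cytosines.

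The testis copies read above most standard members, and in different ways. Rpl10l, which replaces the X-linked Rpl10 when the X chromosome is silent in meiosis, starts at position 66284401 on the minus strand of chromosome 12 and read 20.2, 14.2 and 10.5% in CSDS and 21.0, 21.6 and 20.8% in Control over 43 cytosines. The groups did not overlap, with CSDS replicate 1 close to Control. The means were 14.96% ± 4.88 in CSDS and 21.1% ± 0.428 in Control (SD, n = 3 each), a difference of -6.19 points with an adjusted p of 0.122 in the quasi-binomial test across all windows. Only 1 of its cytosines was over 50%, and its window median of 16.4% was the second highest of the 74 genes. In the sequence shown, 7 of its cytosines were listed and read between 13.3 and 19.3% each.

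Rpl39l, the copy of the X-linked Rpl39 in spermatid ribosomes, read 21.4, 16.6 and 18.7% in CSDS and 21.6, 18.98 and 22.1% in Control over 41 cytosines. The groups overlapped, and the difference was -2.02 points with an adjusted p of 0.164. Its window median was 12.0%, and in the sequence shown its 25 listed cytosines spanned 3.83 to 100%. The CCGG site that spans the start of transcription (cytosine at position 10170227) read 100% on the forward strand in every library and 12.1% on the reverse strand as a mean.

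The other copies varied. Rpl3l read 26.2, 20.1 and 24.7% in CSDS and 31.5, 28.9 and 28.2% in Control, with its groups apart, and its window median of 18.4% was the highest of the 74. Its 35 cytosines lay 292 to 856 bases after the start. Rpl7l1, a relative of Rpl7, read 11.6% ± 2.74 in CSDS and 18.2% ± 3.76 in Control, and Rps27l, a relative of Rps27, read 12.2% ± 4.64 in CSDS and 16.7% ± 0.313 in Control. Rpl22l1, a relative of Rpl22, read 8.20% ± 2.46 in CSDS and 13.2% ± 1.42 in Control (SD, n = 3 each). Rps27l, Rpl22l1 and Rpl36al lay among the standard genes by window median. The X-linked parents lie outside the autosomal set; 3 of 4 X-linked ribosomal protein genes were measured, and Rpl39 averaged 8.55%, Rpl36a 10.8% and Rps4x 11.8% over 6 libraries.

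**Figure D3:**
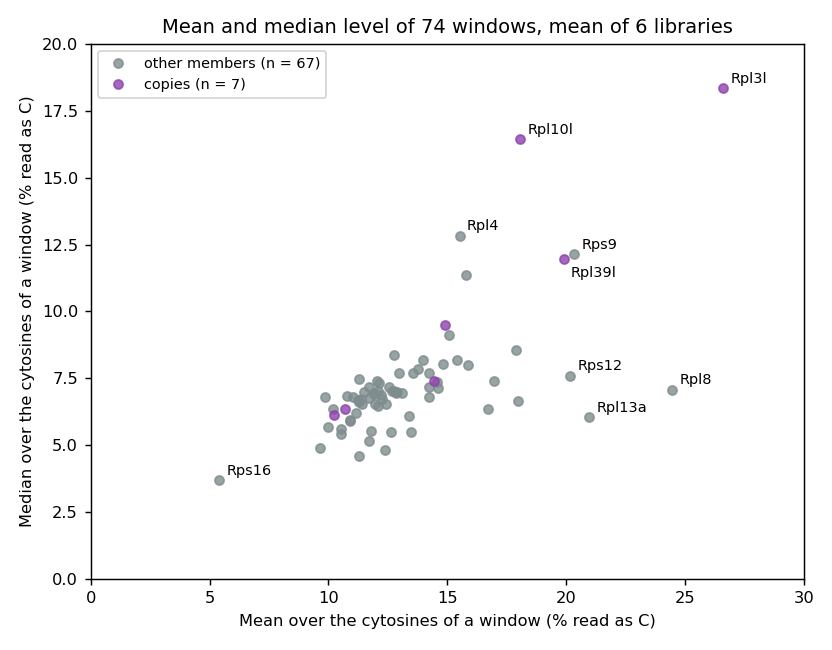
Median (y axis) against mean (x axis) over the cytosines of each window, in percent of reads showing C averaged over 6 libraries, for 67 other ribosomal protein genes (grey) and 7 copies (purple). Rpl3l and Rpl10l are high on both axes, whereas Rpl8, Rpl13a and Rps12 are high in the mean only, with medians under 10%.

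Among standard members, Rpl8, Rpl13a, Rps9 and Rps12 had window means over 20%. Rpl8, a large subunit protein close to the peptidyl transferase centre, read 28.4, 20.1 and 19.97% in CSDS and 25.9, 26.5 and 25.9% in Control on 14 cytosines, 3 of them over 50%. Rpl13a, also known for silencing of inflammatory messages, read 22.1, 17.2 and 19.3% in CSDS and 24.5, 22.0 and 20.7% in Control on 12 cytosines, 2 over 50% and all between -280 and -231 bases from the start. In both genes the groups overlapped, and the window medians were 7.08% in Rpl8 and 6.05% in Rpl13a. Rps12, a small subunit protein, averaged 18.1% ± 2.75 in CSDS and 22.3% ± 0.196 in Control with 9 of 56 cytosines over 50% and a median of 7.60%. Rps9, a small subunit protein tied to translational accuracy, read 19.9, 16.0 and 17.0% in CSDS and 23.0, 22.7 and 23.5% in Control, with its groups apart and a median of 12.1%. The 45 cytosines of Rps9 lay 315 to 713 bases after the start. In all, 68 of the 74 window medians were under 10%, and the exceptions were Rpl3l, Rpl10l, Rpl4, Rps9, Rpl39l and Rps2.

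Of the 76 windows, those of Rpl37rt and Rpl3 alone averaged over 50%. Rpl37rt, a copy of Rpl37 annotated on chromosome 5 with its start at position 115110268 on the minus strand, read 95.6, 96.0 and 96.7% in CSDS and 97.03, 97.2 and 97.7% in Control on 18 cytosines, all over 50%. Its groups did not overlap, and the difference of -1.22 points had an adjusted p of 0.342. Rpl3, a large subunit protein near the peptidyl transferase centre, was placed by its gene end, without a strand. The lower end (position 80077781 on chromosome 15), with 12 cytosines, read 95.4% ± 0.813 in CSDS and 94.97% ± 1.46 in Control (SD, n = 3 each), while the upper end (position 80083406), with 8 cytosines, read 28.6 to 31.4% in CSDS and 28.6 to 34.3% in Control. Which end is the start is not given in these tables, so Rpl3 is not taken as a methylated promoter.

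Level differed with the distance from the start. The mean of cytosines in the 74 windows was lowest between 100 and 250 bases after the start, with 8.68% in CSDS and 12.5% in Control. It was highest between 750 and 1000 bases, with 21.4% in CSDS and 23.9% in Control. The lowest stretch held 1292 cytosines of these genes and the highest only 144, against 55460 of other genes in that highest stretch. Over the same stretches other genes read 9.47% in CSDS and 12.9% in Control, and 12.7% in CSDS and 16.3% in Control. The difference in slope was not tested. Cytosines with 20 or more listed cytosines within 100 bases had a median of 4.63% ± 2.66 in CSDS and 8.38% ± 0.296 in Control, against 10.8% ± 1.49 in CSDS and 17.9% ± 2.15 in Control for the 120 cytosines with 6 or fewer (SD, n = 3 each).

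**Figure D4:**
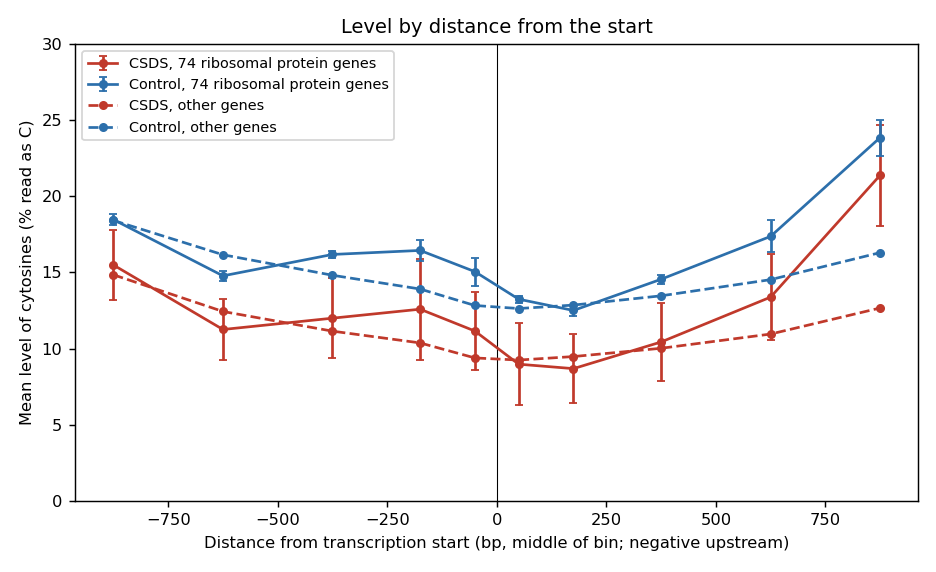
Mean level of cytosines (percent of reads showing C, y axis) by distance from the transcription start (x axis, bp) for CSDS (red) and Control (blue), in 74 ribosomal protein genes (solid, bars are the SD over 3 libraries) and other genes whose windows averaged under 50% (dashed). Control lies above CSDS in every bin, and the solid lines end highest, at 21.4% in CSDS and 23.9% in Control, in a bin of 144 cytosines.

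Comparing CSDS with Control asks whether chronic stress goes with altered germ cell methylation, and at ribosomal protein genes no window passed the test. The members' mean level was 16.6, 12.0 and 12.5% in CSDS replicates 1 to 3 and 17.6, 17.9 and 17.4% in Control replicates 1 to 3. CSDS replicate 1 was close to Control and CSDS replicates 2 and 3 were lower. The means were 13.7% ± 2.52 in CSDS and 17.6% ± 0.250 in Control (SD, n = 3 each), a difference of -3.87 points. An exact two-sided permutation test on 3 against 3 libraries cannot give a p below 0.1, so none could pass 0.05. The difference was below 0 in 74 of 76 members and in 96.4% of all windows, and the median difference was -3.94 points over the members and -3.41 points over all windows.

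With the quasi-binomial test across windows, at an adjusted p under 0.05 and a difference of at least 10 points, 0 of 76 members and 0 of 14570 windows (0%) were called. At an unadjusted p under 0.05 there were 41 members (53.9%), against 41.1% of all windows, and limma on logit levels called 43 windows (0.295%) and no member. The groups did not overlap, with CSDS lower, in 34 members (44.7%), against 37.1% of all windows, and with CSDS higher in 0 members, against 0.165%. CSDS replicates 2 and 3 were below the other 4 libraries in 71 members, against 86.1% of all windows. CSDS replicate 1 lay inside the Control range in 35 members, below it in 34 and above it in 7, against 47.4, 39.6 and 13.0% of all windows. Without CSDS replicate 1, all windows called numbered 195 (1.34%) and included 1 member, Rps2. Its difference was then -10.1 points with an adjusted p of 5.70e-05 in the quasi-binomial test. That comparison kept only CSDS replicates 2 and 3, the libraries also lowest at mitochondrial cytosines, and the Control libraries of Rps2 ranged between 13.7 and 24.2%. Groups were apart, without CSDS replicate 1, with CSDS lower in 73 members, against 87.9% of all windows.

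The members of largest difference were Rpl4, Rps2, Rpl7l1, Rps23 and Rpl10l. Rpl4, a large subunit protein that lines the exit tunnel, read 11.2, 12.8 and 9.43% in CSDS and 22.5, 21.2 and 16.0% in Control on 41 cytosines. These lay between -704 and -429 bases from the start (negative upstream), and none nearer to it was used. The groups of Rpl4 did not overlap, and the difference was -8.74 points with an adjusted p of 0.113 in the quasi-binomial test. Rps23, a small subunit protein at the decoding centre, read 11.4, 5.64 and 7.60% in CSDS and 16.6, 13.7 and 13.98% in Control, also without overlap, at -6.53 points and the same adjusted p. Rps2 read 18.1, 9.37 and 9.15% in CSDS and 24.2, 20.2 and 13.7% in Control, and there the groups overlapped. The smallest unadjusted p-values belonged to Rpl36al, Rpl12, Rpl24, Rpl4 and Rps9, each with an adjusted p of 0.113 in the quasi-binomial test. That value was the lowest over all 14570 windows, and members of larger unadjusted p, such as Rpl10a, shared it. Rpl12, at the base of the stalk, read 10.9% ± 1.99 in CSDS and 15.3% ± 0.0600 in Control, and Rpl24, a large subunit protein, 9.59% ± 1.15 in CSDS and 14.6% ± 0.428 in Control (SD, n = 3 each). Starts of other genes lay within 1 kb in 12 measured members, Rpl36al (Mgat2), Rpl12 (Lrsam1) and Rpl4 (Zwilch) among them, so these windows are shared.

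The 41 standard large subunit genes without Rpl3 averaged 11.2% ± 2.35 in CSDS and 14.8% ± 0.196 in Control, and the 26 small subunit genes 11.3% ± 2.88 in CSDS and 15.6% ± 0.212 in Control (SD, n = 3 each). The differences were -3.60 points in the large and -4.30 points in the small subunit genes, and these were not tested against each other.

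CSDS had the lower mean both at cytosines outside CCGG and at those in CCGG. Promoter cytosines outside CCGG averaged 8.83, 3.28 and 3.91% in CSDS and 9.09, 9.81 and 8.53% in Control, so CSDS replicate 1 lay within the Control range and the difference was -3.80 points. Those at CCGG averaged 38.9, 33.9 and 34.4% in CSDS and 39.8, 40.9 and 40.3% in Control, a difference of -4.56 points with the groups apart, while their median was 22.9% ± 3.31 in CSDS and 26.98% ± 0.935 in Control (SD, n = 3 each) with overlapping groups. The mitochondrial median, given above, differed by -3.45 points, with the same 2 CSDS libraries lowest. Pooled over reads, those cytosines read 14.7, 9.79 and 9.89% in CSDS and 15.6, 15.6 and 15.8% in Control replicates 1 to 3. A correction with these higher pooled shares was not run, so the corrected values below hold for the medians only. When the unmethylated share of each library was divided by 1 minus its mitochondrial median, the members averaged 8.41% ± 0.450 in CSDS and 9.19% ± 0.919 in Control (SD, n = 3 each), with overlapping groups and a difference of -0.777 points. By library these were 8.88, 7.98 and 8.37% in CSDS and 9.51, 9.90 and 8.15% in Control, so only Control replicate 3 lay within the CSDS range. In CSDS replicates 2 and 3 and Control replicate 3 the mitochondrial median (4.41, 4.53 and 10.04%) exceeded the promoter mean outside CCGG. Corrected levels could fall below 0, as in Rps16 with -2.86 and -4.74% in CSDS replicates 2 and 3 and -5.38 and -6.31% in Control replicates 1 and 3. The corrected difference was below 0 in 56 of 76 members and in 8507 of 14570 windows. The groups were then apart with CSDS lower in 7 members (9.21%), against 7.78% of all windows, and with CSDS higher in 1 member (1.32%), against 4.06%. The 7 were Rpl15, Rpl24, Rpl37rt, Rpl38, Rps21, Rps23 and Rps9, named after their values were seen. The part of conversion in the difference between groups was not tested beyond these values.

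**Figure D5:**
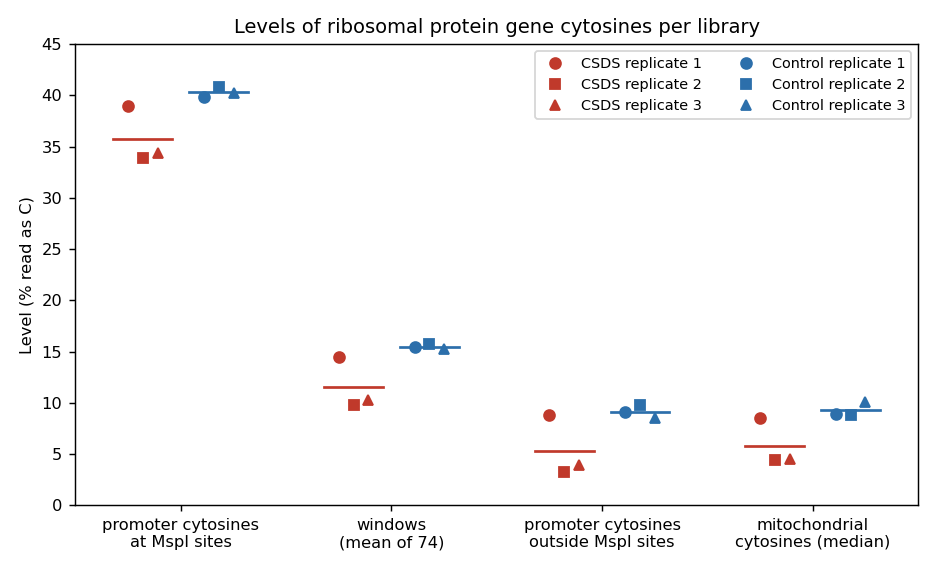
Level in each library (percent of reads showing C, y axis; lines are group means) of promoter cytosines at MspI sites, the 74 windows, promoter cytosines outside MspI sites and 27 mitochondrial cytosines, with CSDS in red left of Control in blue. CSDS replicates 2 and 3 are the lowest libraries in all 4 columns, and CSDS replicate 1 lies near Control.

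Other genes of protein synthesis read at similar levels. Of 78 mitochondrial ribosomal protein genes 74 were measured, 65 of them under 20%, with medians of 11.4% in CSDS and 15.5% in Control, against 10.8% in CSDS and 14.7% in Control for the 76 members. Of 30 genes for translation factors and ribosome assembly 28 were measured, 27 under 20%, with medians of 10.1% in CSDS and 13.4% in Control. None was called in either list, and the groups were apart with CSDS lower in 29 of the mitochondrial ribosomal (39.2%) and 10 of the other genes (35.7%), against 37.1% of all windows. Of ribosomal proteins with other symbols, Rpsa averaged 11.5%, Fau 13.8% and Rack1 14.2% over 6 libraries.

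The labelled cell type was looked at through promoters of marker genes. Of 7 germ cell genes, Prm1, a protamine gene of late spermatids, averaged 89.0% over 6 libraries, and the other 6 averaged between 13.3% (Dazl) and 26.5% (Tnp1). Of the markers of testis somatic cells, Sertoli genes averaged 10.5% (Amh), 17.4% (Sox9), 17.7% (Wt1) and 88.6% (Gata4), and the 2 Leydig genes measured of 4 averaged 47.3% (Insl3) and 95.8% (Star). Promoter methylation does not measure expression, and the share of somatic cells was not tested.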

How the data were processed

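The submitters' processing notes name Trim Galore 0.5.0, Bismark 0.20.0 and the build GRCm38, with no settings. Per the file headers, each deposited table gives the coverage of a CpG cytosine, a read count, and the percent showing C and T; no cytosine under 10 reads is listed. Duplicate handling and conversion rate are not given in the sources used here. Intervals were not computed, since reads without molecular identifiers are not independent molecules.

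Cytosines listed in all 6 libraries (2210988, or 66.0% of those in any) entered, less 4668 whose coverage ranked in the highest 0.1% of some library, and strands were kept apart. The design had taken starts from gene bounds. As 6 members had bounds over 500 bp from their RefSeq start, starts were taken from RefSeq promoters (GRCm38.p6; 62 members, the start with most cytosines) and otherwise from the gene end with more cytosines (20 members), whose orientation follows from that end. For 56 of the 62 the RefSeq start lay within 1 kb of that end. Over all genes with a RefSeq start this held for 72.1%, and 4395 of 21887 protein-coding genes were placed by gene end. Rps23rg1 was left out as no ribosomal protein, and Rpl37rt and Rpl32l were counted as copies.

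A window's level is the mean over its cytosines. Methylated and unmethylated counts, taken from the deposited coverage and percent, were fitted by a quasi-binomial logistic model in R 4.3.3. Dispersion was moderated by limma 3.58.1, with an F test and Benjamini-Hochberg adjustment over 14570 windows. The procedure was run on simulated data that held no shift of whole libraries, so that run cannot show how it behaves under such a shift. Tables were handled with Python 3.11.15, numpy 2.4.6 and pandas 2.3.3, and drawn with matplotlib 3.10.9. Members, lists and tests were chosen with earlier results of these data known. The genes named are the copies and stalk genes, the 6 of highest and 4 of lowest mean, any at 20% or more, the 5 of largest difference, the 5 of smallest p and the 3 with most cytosines; Rpl27a, Rpl10a (promoter sequences), Rpl6, Rps26 and others said to be so were named after their values were seen. Results of some genes that these rules pick or count are not reported here. Alternatives were the coverage minimum (20 reads) and limit, windows of 500 bp, at least 10 cytosines, summed reads, merged strands, a mitochondrial correction, limma on logits with a pseudocount of 1 read, a replicate block, single libraries left out, and, chosen after seeing the data, gene bounds, window medians and the omission of doubted genes, sites or libraries.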

Additional observations from a re-analysis of the deposited data

How the results depend on the processing

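The members' difference of -3.87 points kept its sign in every alternative run, and apart from the mitochondrial correction and left-out libraries it lay near the value reported: -3.75 points with starts at gene bounds (74 members measured, 32 with groups apart and CSDS lower, against 36.3% of all windows), -4.08 with window medians, -3.97 without Rpl3 and Rpl37rt and -3.80 for promoter cytosines outside CCGG. With the mitochondrial correction, run with the medians and not with the pooled shares, it was -0.777 points, and 21 of 26 named genes were below 0. The groups were then apart with CSDS lower in 7 members and with CSDS higher in 1. The cause was not tested. Leaving out 1 library gave -5.32 to -3.03 points, 34 to 73 members apart with CSDS lower (38.0 to 87.9% of all windows), 0 to 1 apart with CSDS higher (0.35 to 0.611% of all windows), 0 to 1 members called and 0 to 195 windows called, the highest counts of calls and of lower members being those without CSDS replicate 1, where 1 group holds 2 libraries. Leaving out CSDS replicates 2 and 3 gave -0.980 points, with the lone CSDS library assumed to vary like the Control libraries, and turned Rpl22 (1.01), Rps16 (1.36), Rps27l (0.838), Rpl8 (2.33) and Rpl39l (0.483) above 0. Rpl3 turned to -0.104 with strands merged and ranged between -0.157 (without Control replicate 3) and 1.23 with 1 library left out. Limma on logits called 43 windows. By replicate number the correlations of deviations were -0.093, -0.058 and 0.001, which cannot show whether the numbers mark pairs. The fit with the replicate block called 0 members and 0 windows. Rps16 rests on 5 cytosines, and windows of few cytosines are the least precise.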
